A study of Mus musculus with 12 samples.

Results

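To see how the insulin and insulin-like growth factor (IGF) pathway was expressed in obese lesional skin, 10 of its genes were followed in skin of 5 AD and 7 HF + AD mice. They were found by symbol among the 23282 entries of the count table, each with 1 entry. They are the ligand Igf1, the receptors Insr and Igf1r, the receptor substrates Irs1 and Irs2, the receptor-binding inhibitor Grb10, the IGF-binding proteins Igfbp3 and Igfbp5, and the transcription factors Foxo1 and Foxo3. All mice were wild-type male C57BL/6J, bought at 5 weeks of age, and all had AD-like lesions induced on dorsal skin with 0.5% 2,4-dinitrochlorobenzene (DNCB), a contact sensitizer, for 6 weeks. The AD mice were fed normal chow. The HF + AD mice, labelled AD+OB, received a diet with 60% of its energy from fat, started 4 weeks before DNCB and given for 10 weeks in all. Tissue was taken after a fast of 12 h in both groups, so that all levels below are those of fasted animals. Each library came from 1 mouse and read the 3′ ends of mRNA (QuantSeq), and mice without lesions were not analysed here.

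Insulin and IGF-1 act through closely related receptor tyrosine kinases. The active receptors phosphorylate IRS proteins, which recruit phosphoinositide 3-kinase and activate AKT, and AKT keeps FoxO transcription factors out of the nucleus. IGF-binding proteins hold IGFs in the extracellular space and prolong or limit their access to the receptor. In skin, IGF-1 is made mainly by dermal fibroblasts and dermal papilla cells, while keratinocytes carry the receptor, and the pathway is known for its part in keratinocyte growth and in the hair cycle.

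Igfbp5, whose product binds IGFs in the matrix, was the gene of the 10 that changed. It was 1.94-fold higher in the HF + AD group. The other binding protein, Igfbp3, averaged 49.7 ± 22.3 CPM (SD, n = 5) in AD mice and 36.1 ± 8.47 CPM (SD, n = 7) under the high-fat diet, and this difference did not pass the test. The ligand, both receptors, both substrates, Grb10 and Foxo1 did not pass the test either, and Foxo3 was at the limit of detection. CPM are counts scaled to a common library size, with the totals adjusted by the TMM method of edgeR. Over all genes with enough counts, 14163 in number, 9.20% passed the threshold of an adjusted p under 0.05 (edgeR's quasi-likelihood test, Benjamini–Hochberg adjustment over these genes) in either direction with 4.43% higher and 4.77% lower in the HF + AD group. Of the 10 genes, 9 could be tested, and the 1 called, 11.1% of them, is close to that background share. At an unadjusted p under 0.05 it was also 1 of the 9, against 25.1% of all genes. The median log2 fold change of the 9 was −0.036.

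The binding proteins are also the members for which the upstream sequences are shown, since Igfbp5 was the gene called and the ratio of Igfbp3 to it differed between the groups. Both sequences come from RefSeq (GRCm38.p6), on the minus strand, end just before the start of the gene in GENCODE M21 and are written 5′ to 3′. Igfbp5 is given from chr1:72874885-72875115, its RefSeq start lying further downstream at 72874865, and Igfbp3 from chr11:7213924-7214173. Capitals mark TTTAAA in Igfbp5 and TATATA in Igfbp3, A- and T-rich stretches of the kind found at TATA-type promoters; these letters were chosen after the sequences were seen.
Igfbp5: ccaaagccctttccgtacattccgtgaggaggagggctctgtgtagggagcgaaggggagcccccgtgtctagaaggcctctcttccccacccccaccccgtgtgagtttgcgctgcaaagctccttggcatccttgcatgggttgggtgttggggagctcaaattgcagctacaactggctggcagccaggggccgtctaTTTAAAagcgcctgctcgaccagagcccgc
Igfbp3: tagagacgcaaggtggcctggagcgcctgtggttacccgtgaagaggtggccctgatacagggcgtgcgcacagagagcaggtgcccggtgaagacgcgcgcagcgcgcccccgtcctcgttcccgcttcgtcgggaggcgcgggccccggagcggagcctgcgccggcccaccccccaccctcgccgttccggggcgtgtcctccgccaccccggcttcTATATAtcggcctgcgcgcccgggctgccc

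Among 32851 RefSeq windows of 250 bases upstream of a start site, TTTAAA was found in 12.1% and TATATA in 5.25%, both being their own reverse complement. A window was given for 9 of the 10 genes. Of these, Grb10 and Igfbp5 held TTTAAA, and Igfbp3 held TATATA. The canonical TATA box TATAAA, read on both strands, was found in 0 of the 9 and in 12.4% of all windows, and the FoxO motif TGTTTAC in 0 of the 9 and in 3.17% of all windows. The GC box GGGCGG, found in 32.7% of all windows, was present upstream of Foxo1, Foxo3, Grb10, Igf1r, Irs1 and Irs2, and the CCAAT box CCAAT, found in 33.8%, upstream of Foxo1, Igf1 and Irs2. These are matches of letters only.

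Library totals ran from 9746937 to 11688979 counts in AD mice and from 10726845 to 13462434 in HF + AD mice. The AD libraries had reads on 13100 to 15063 genes and the HF + AD libraries on 15522 to 16677, without overlap, and the estimated number of counts per sequenced molecule averaged 20.4 ± 9.67 (SD, n = 5) for AD and 5.63 ± 1.28 (SD, n = 7) for HF + AD, with every AD library above the highest HF + AD value of 7.35. Low counts of both groups therefore stand for fewer molecules than their number, more so in the AD group, and the intervals below do not include this. The labelled tissue was borne out by its markers: the keratins Krt5 and Krt14 and the collagen Col1a1 of dermal fibroblasts had at least 5394 counts in each mouse. In whole skin, fewer cells of a type and less RNA per cell cannot be told apart.

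Igfbp5 lies on chromosome 1 from 72857932 to 72874884 (GENCODE M21, GRCm38). AD mice 1 to 5 had 75.3, 51.1, 43.5, 77.2 and 36.3 CPM. The 7 HF + AD mice had between 80.1 and 156 CPM, with a median of 103 CPM. All 7 HF + AD mice thus lay above all AD mice, a separation in this direction seen for 2.90% of the genes tested and in either direction for 5.46%, but the lowest HF + AD mouse exceeded the highest AD mouse by just 0.051 on the log2(CPM + 1) scale. The log2 fold change was 0.96 (standard error 0.22, 95% interval 0.49 to 1.43, adjusted p = 0.0159 from edgeR). On the log2(CPM + 1) scale, Igfbp5 was 5.79 ± 0.47 (SD, n = 5) and 6.76 ± 0.37 (SD, n = 7), with a two-sided exact permutation p of 0.00126, the smallest that 792 splits allow. Igfbp5 passed in all 22 other analyses across all genes, with an adjusted p between 0.00115 and 0.0465, and 8.86% of the genes tested had a larger log2 fold change.

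Several cell type markers moved beside Igfbp5. Of all genes tested, 9.20% were called in either direction. The summed level of 5 basal keratinocyte markers lay between 3155 and 4967 CPM in the AD group and between 5785 and 10332 CPM in the HF + AD group, without overlap; Krt5 (log2 fold change 0.81, adjusted p = 0.00679), Krt14 (1.05, adjusted p = 0.0248) and Krt15 (1.21, adjusted p = 0.0151) rose in edgeR's test, whereas Col17a1 (0.0010) and Itgb4 (0.39) did not pass. For 6 endothelial markers the sum was 26.6 to 59.5 CPM and 37.0 to 89.5 CPM, and the vascular genes Cdh5 (log2 fold change 1.56, adjusted p = 0.0284) and Kdr (1.06, adjusted p = 0.0243) rose, in 15 and 18 of 22 other analyses too. The other 4 did not pass in edgeR's test, with log2 fold changes of 1.04 for Tie1, 0.47 for Pecam1, −0.21 for Emcn and −0.36 for Tek. HF + AD mouse 1 had the highest Igfbp5 level of the 12 mice, and also the highest basal keratinocyte sum and the highest endothelial sum. Other mice went the other way. AD mouse 5 had the lowest Igfbp5 level of the 12 mice and the highest basal keratinocyte sum of its group. Across the groups, AD mouse 1 had an endothelial sum of 59.5 CPM, above HF + AD mice 4, 5 and 6 (37.0, 53.6 and 41.2 CPM), and less Igfbp5 than each of them. The 7 dermal fibroblast markers, at 3297 to 9935 CPM in the AD group and 3320 to 10349 CPM in the HF + AD group, overlapped over nearly their whole range, and none of the 7 passed in edgeR's test, 1 of them (Pdgfra) having an unadjusted p under 0.05. Of the 7, 6 had a log2 fold change above 0, with a list median of 0.32, and Col1a1 had −0.45. Col3a1 (0.80) and Pdgfra (0.96) each passed in 1 of 22 other analyses. The part of these cell types in the Igfbp5 result was not tested.

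**Figure D1:**
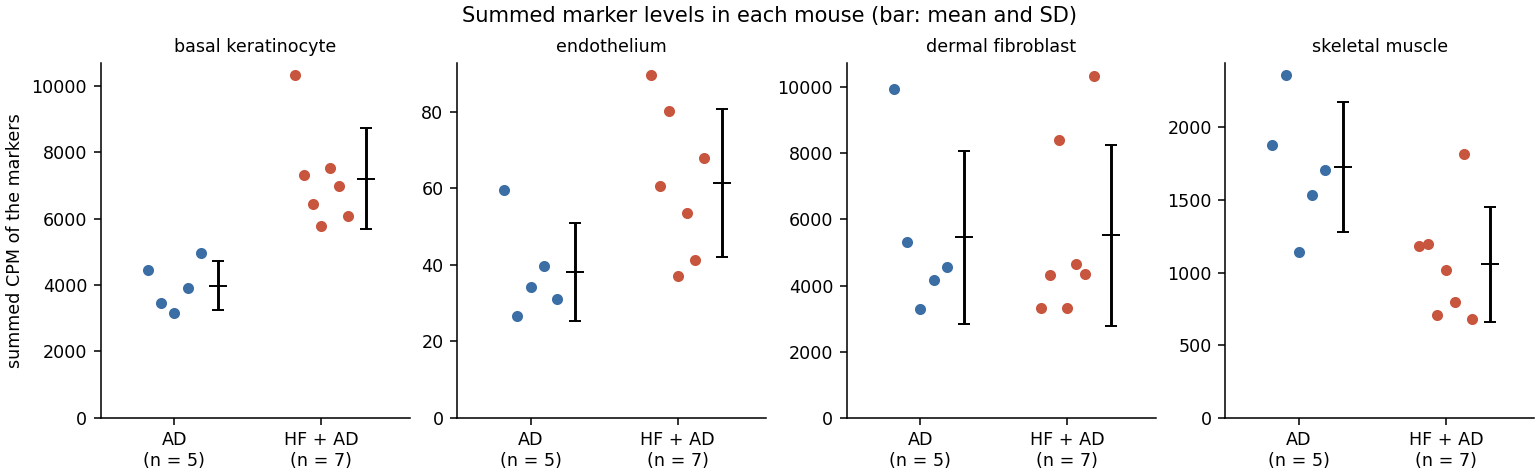
Summed CPM of marker genes in each mouse for basal keratinocytes, endothelium, dermal fibroblasts and skeletal muscle (vertical axes from 0; points are mice, set apart sideways; bars give the mean and SD; AD n = 5, HF + AD n = 7). The basal keratinocyte sums of the 7 HF + AD mice (5785 to 10332 CPM) all lie above those of the 5 AD mice (3155 to 4967 CPM), whereas the fibroblast sums overlap.

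Igfbp3, the main carrier of IGFs in blood, lies on chromosome 11 from 7206086 to 7213923. Its level was 78.3, 67.2, 35.9, 41.8 and 25.2 CPM in AD mice 1 to 5, and 25.97 to 51.2 CPM (median 34.7 CPM) in the HF + AD group. AD mice 1 and 2 stood above every HF + AD mouse, and the other 3 AD mice fell among or below them. The log2 fold change of −0.46 (standard error 0.25, 95% interval −0.996 to 0.073) did not pass (adjusted p = 0.275 from edgeR), and the two-sided exact permutation p was 0.240. Without AD mouse 5, the lowest of its group, this exact permutation p was 0.0485 at a difference of −0.57, while the fit across all genes still did not call it.

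Within each library, Igfbp3 was then set against Igfbp5, which takes out most of the effect of scaling. The log2 ratio of Igfbp3 to Igfbp5 averaged −0.24 ± 0.49 (SD, n = 5) in AD mice and −1.57 ± 0.61 (SD, n = 7) under the high-fat diet. It ranged from −0.87 to 0.39 in AD mice and from −2.54 to −0.68 in HF + AD mice, and 6 of the 7 HF + AD mice lay below all AD mice. The difference of −1.33 had a two-sided exact permutation p of 0.00631, or 0.0253 after Benjamini–Hochberg adjustment over the 4 ratios computed. Without AD mouse 1 or without AD mouse 2, those with the highest ratios, the difference was −1.26 and −1.17 with an adjusted exact permutation p of 0.0606 in both cases.

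**Figure D2:**
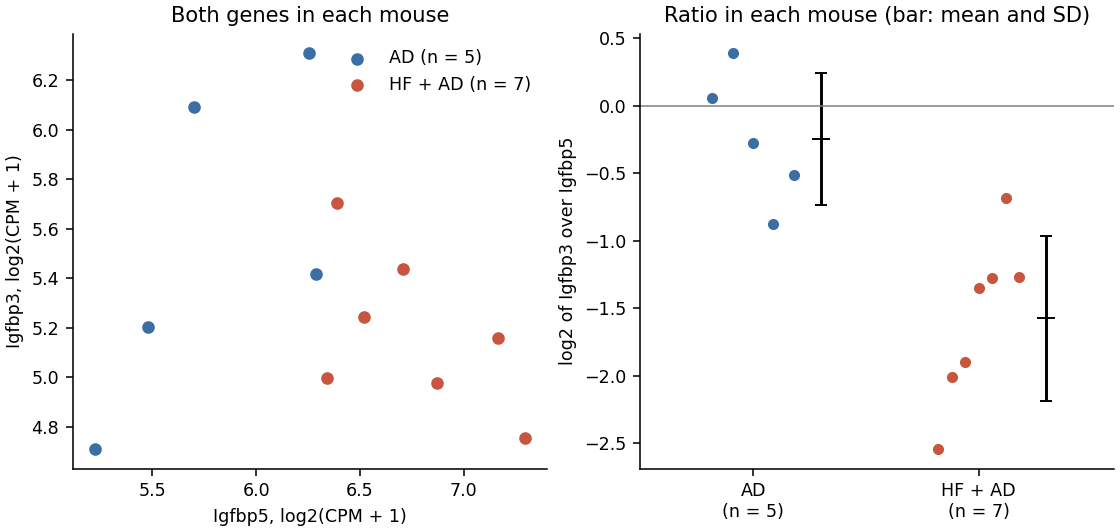
Left, log2(CPM + 1) of Igfbp3 against Igfbp5 in each mouse; right, the log2 ratio of Igfbp3 to Igfbp5 in each mouse with the mean and SD as bars (AD n = 5, HF + AD n = 7; the grey line marks equal levels). HF + AD mice lie to the right of all AD mice on the Igfbp5 axis, and 6 of the 7 have a ratio below the lowest AD value of −0.87.

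Igf1, the ligand of Igf1r, lies on chromosome 10 from 87858265 to 87937042 and overlaps the antisense gene Igf1os. AD mouse 1 had 278 CPM, while AD mice 2 to 5 had 40.9, 91.0, 61.4 and 61.4 CPM. The HF + AD mice had 49.8 to 159 CPM, with a median of 92.2 CPM. AD mouse 1 thus exceeded every HF + AD mouse, and the remaining 4 AD mice fell in or below the lower part of the HF + AD range. The log2 fold change was −0.036 (standard error 0.41, 95% interval −0.90 to 0.83, adjusted p = 0.971 from edgeR), the means of log2(CPM + 1) differed by 0.19 in the other direction, and without AD mouse 1 the log2 fold change was 0.71 (adjusted p = 0.150), so that no direction is given. AD mouse 1 also had the highest fibroblast marker sum of its group, 9935 CPM against 3297 to 5309 CPM in the other 4. Its marker sums for adipocytes (663 CPM), macrophages and dendritic cells (134 CPM), endothelium (59.5 CPM), suprabasal keratinocytes (1347 CPM) and T cells (19.9 CPM) were highest too. Its dermal papilla (344 CPM), hair (7514 CPM) and sebocyte (521 CPM) sums were the lowest of its group. It also had the most counts per molecule (32.2). The part of these in its Igf1 level was not tested.

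The receptors were measured with less spread. Insr (chromosome 8, 3122061 to 3279617), the insulin receptor, had 11.8, 23.5, 19.2, 15.9 and 26.4 CPM in AD mice 1 to 5 and 13.6 to 27.4 CPM (median 22.6 CPM) in the HF + AD group. The groups overlapped over almost the whole range, and the log2 fold change was 0.16 (95% interval −0.35 to 0.67, adjusted p = 0.735 from edgeR). Igf1r (chromosome 7, 67952827 to 68233668), the IGF-1 receptor, had 95.3, 107, 79.4, 140 and 141 CPM in AD mice 1 to 5 and 109 to 144 CPM (median 121 CPM) in the HF + AD group. Here 3 AD mice lay below all HF + AD mice and the other two near the top of the HF + AD range. The log2 fold change of Igf1r was 0.13 (95% interval −0.20 to 0.45, adjusted p = 0.662 from edgeR), so that a doubling or a halving lies outside the interval of either receptor. The log2 ratio of Igf1r to Insr was 2.50 ± 0.47 (SD, n = 5) and 2.47 ± 0.36 (SD, n = 7), with an adjusted exact permutation p of 0.917.

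Irs1 and Irs2 are the docking proteins that pass the receptor signal on. Irs1 (chromosome 1, 82233101 to 82291416) had 33.9, 15.1, 51.7, 23.3 and 20.5 CPM in AD mice 1 to 5 and 16.6 to 34.4 CPM (median 23.4 CPM) in the HF + AD group. The AD values enclosed all HF + AD values, and no difference was detected (log2 fold change −0.20, 95% interval −0.78 to 0.38, adjusted p = 0.711 from edgeR). Without AD mouse 3, the highest, the sign changed (0.12, adjusted p = 0.827). Irs2 (chromosome 8, 10984681 to 11008458), which in liver is strongly induced by fasting, had 0 to 12 reads in the AD libraries and 0 to 22 in the HF + AD libraries. That is 0 to 1.24 CPM and 0 to 1.596 CPM, with no read in 2 of 5 AD mice and 1 of 7 HF + AD mice. Irs2 passed the filter on low counts, and its log2 fold change of 0.67 had a 95% interval from −1.70 to 3.03 (adjusted p = 0.763 from edgeR). A change of several fold in either direction was thus not detectable at these counts. With 1 added to each CPM, the log2 ratio of Irs1 to Irs2 was 4.16 ± 0.93 (SD, n = 5) and 3.74 ± 0.61 (SD, n = 7). The adjusted exact permutation p was 0.483. At so low a level of Irs2, the added 1 sets much of this ratio, so its size is not a measure of the true ratio. The difference of −0.42 between the groups ranged from −1.07 to −0.18 over 14 other analyses.

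Grb10, an adaptor that binds both receptors and dampens their signal, lies on chromosome 11 from 11930508 to 12038683. AD mice 1 to 5 had 11.5, 2.49, 11.1, 10.97 and 4.798 CPM, and the HF + AD mice 4.44 to 13.9 CPM (median 7.18 CPM). AD mice fell into a higher set of 3 and a lower set of 2 around the HF + AD median. The log2 fold change was −0.10 with a 95% interval from −1.01 to 0.81 (adjusted p = 0.920 from edgeR), and its sign changed in 4 of 22 other analyses.

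Foxo1 and Foxo3 encode the transcription factors that insulin signaling restrains. Foxo1 (chromosome 3, 52268336 to 52353221) had 112, 190, 182, 186 and 159 CPM in AD mice 1 to 5 and 139 to 199 CPM (median 155 CPM) in the HF + AD group. AD mouse 1 was the lowest of the 12 mice, and the other 4 AD mice lay within the HF + AD range. The log2 fold change was −0.036 (95% interval −0.35 to 0.27, adjusted p = 0.915 from edgeR); on library totals alone it was 0.0027, so that no direction is given. Foxo3 (chromosome 10, 42181841 to 42276755) was at 0 reads in all 5 AD libraries, which allows up to 0.257 to 0.308 CPM per library if each read is taken as a separate molecule. With the counts per molecule estimated above, the level that 0 reads allow is higher than this limit. In the HF + AD group, 4 of 7 mice had 3 to 8 reads, or up to 0.65 CPM, and the other 3 had none. At the 3.92 to 7.35 counts per molecule estimated for this group, these reads stand for few molecules. With a mean of 0.29 CPM in the HF + AD group, no fold is given; the two-sided exact permutation p was 0.116, and without a filter on low counts the adjusted p from edgeR was 0.115. The log2 ratio of Foxo1 to Foxo3, taken with 1 added to each CPM, had an adjusted exact permutation p of 0.316. With 0 reads of Foxo3 in all 5 AD mice, this ratio equals the Foxo1 level in that group. It therefore does not measure Foxo1 against Foxo3 there.

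**Figure D3:**
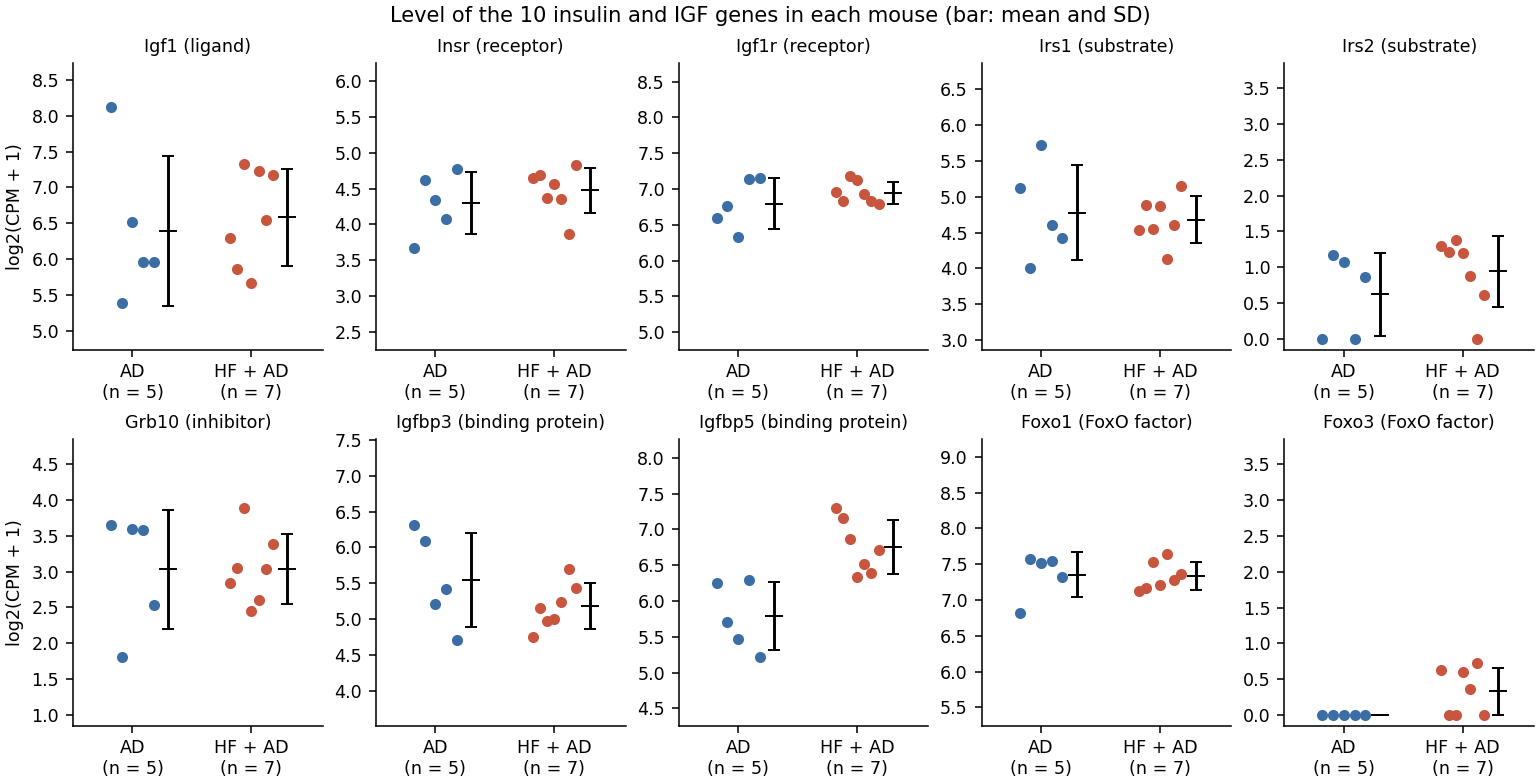
Level of each of the 10 genes in each mouse as log2(CPM + 1) (points are mice, set apart sideways; bars give the mean and SD; AD n = 5, HF + AD n = 7; each vertical axis spans 4 units, with its own start). Igfbp5 is the gene whose groups do not overlap, and Igf1 of AD mouse 1 lies above all other mice.

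**Figure D4:**
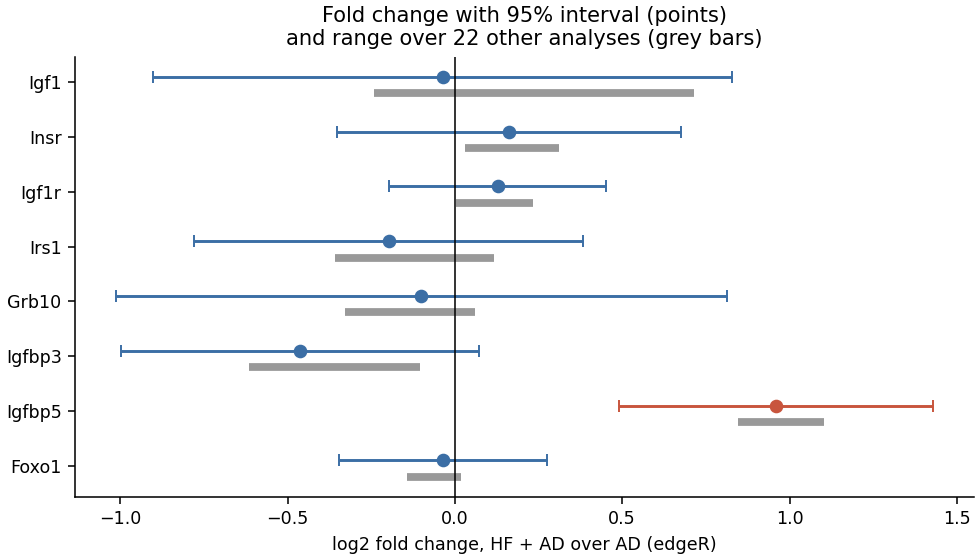
Log2 fold change of HF + AD over AD from edgeR for the 8 tested genes other than Irs2, with its 95% interval (points and whiskers, red where the adjusted p is under 0.05) and the range of the fold change over 22 other analyses (grey bars). The interval of Igfbp5 runs from 0.49 to 1.43, and those of the other 7 genes include 0.

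As a description of the pattern over mice, the deviations of log2(CPM + 1) from the group means were compared over the 12 mice between each member with a mean count of at least 100 and 10142 genes of that abundance. For Igfbp5 the nearest were Adprh (Pearson's r = 0.93, Spearman's rho = 0.83) and the smooth muscle actin gene Acta2 (r = 0.92, rho = 0.87). For Igf1 they were Car13 (r = 0.96) and Sparcl1 (r = 0.96), for Insr Inppl1 (r = 0.98) and Phox2a (r = 0.90), and for Igf1r Rock2 (r = 0.96) and Vdac3 (r = 0.93). Inppl1 encodes SHIP2, a phosphatase of the lipid made by phosphoinositide 3-kinase. Irs1 was nearest to H2-T10 (r = 0.92) and Tfam (r = 0.90), Igfbp3 to Dram2 (r = 0.92) and Lmbrd1 (r = 0.89), and Foxo1 to Zfp932 (r = 0.97) and Fbxl5 (r = 0.95). The highest values among so many genes are high by selection, and the mice share library depth and counts per molecule. Among the members themselves, r lay lower in size, from −0.60 for Igf1r and Irs1 to 0.36 for Igf1 and Igfbp3.

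Around the 10 genes, 66 further genes of the pathway were read in 3 lists, 57 of them with enough counts to be tested. In these, 2 genes rose and 5 fell at an adjusted p under 0.05, which is 12.3% of those tested against 9.20% of all genes, and the median log2 fold change was −0.090 against 0.023 over all genes. Leaving out AD mouse 1 gave 11 called genes in place of 7, and leaving out HF + AD mouse 2 gave 4.

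Of 16 other ligands, binding proteins and their proteases, 12 were tested and 0 passed in edgeR's test, also at an unadjusted p under 0.05. Over all genes, 9.20% passed and 25.1% had an unadjusted p under 0.05. With DESeq2's Wald test, limma-trend or limma voom, 0 of the list passed. The insulin genes Ins1 and Ins2 and the binding protein gene Igfbpl1 had no read in any mouse. The smallest p belonged to Igfbp4, a binding protein that restrains IGFs, at 89.4 to 169 CPM in the AD group and 107 to 192 CPM in the HF + AD group. Its log2 fold change was 0.38 (95% interval −0.0052 to 0.76, unadjusted p = 0.0528 and adjusted p = 0.206 from edgeR). Igfbp4 was followed by Pappa2, a protease that cleaves IGF-binding proteins (−0.82, adjusted p = 0.418), and Ide, the insulin-degrading enzyme (−0.26, adjusted p = 0.452). Among the binding proteins tested, Igfbp5 was thus the gene called, and Igfbp4 leaned the same way without passing. Whether Igfbp5 differed from the others was not tested, apart from Igfbp3.

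Of 30 receptors, adaptors and brakes, 26 were tested, of which 1 rose and 2 fell; this is 11.5% of those tested, close to the 9.20% of all genes. Ptpn1 encodes PTP1B, the phosphatase that removes phosphate from the insulin receptor. Its level was 121, 68.2, 72.1, 97.8 and 120 CPM in AD mice 1 to 5 and 113 to 227 CPM (median 146 CPM) in the HF + AD group, where 6 of 7 mice exceeded all AD mice. It was 1.595-fold higher (log2 fold change 0.67, standard error 0.19, adjusted p = 0.0344 from edgeR), and it passed in 13 of 22 other analyses. It no longer passed when 1 of 7 mice (2, 3 or 4 of the AD group, 1, 2, 4 or 7 of the HF + AD group) was left out, with an adjusted p of 0.0827 at most. Sh2b1, an adaptor that enhances insulin and leptin receptor signaling, had 169, 265, 256, 199 and 236 CPM in AD mice 1 to 5 and 65.1 to 144 CPM (median 128 CPM) in the HF + AD group. All 7 HF + AD mice lay below all AD mice, a separation seen in either direction for 5.46% of the genes tested. The fall by 1.02 on the log2 scale (standard error 0.20) had an adjusted p of 0.00812 from edgeR and passed in each of the 22 other analyses.

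Of 20 genes of the FoxO family and its target genes, 19 were tested, of which 1 rose and 3 fell, or 21.1% of those tested against 9.20% of all genes, and the median log2 fold change was −0.34 against 0.023. With limma voom and sample quality weights, 0 rose and 2 fell. Cat, which encodes the peroxide-degrading enzyme catalase, had 85.1, 69.3, 68.4, 43.9 and 54.9 CPM in AD mice 1 to 5 and 26.3 to 39.6 CPM (median 30.4 CPM) in the HF + AD group. All 7 HF + AD mice lay below all AD mice, a separation seen in either direction for 5.46% of the genes tested. Cat fell by 0.99 on the log2 scale (standard error 0.18) with an adjusted p of 0.00631 from edgeR. Sod2, the mitochondrial superoxide dismutase, fell less (−0.42, standard error 0.13, adjusted p = 0.0466) and passed in 8 of 22 other analyses; with 1 mouse left out, it passed without AD mouse 5 or HF + AD mouse 5 and not without any of the other 10. Trim63, a ubiquitin ligase of muscle, fell by 1.04 on the log2 scale (standard error 0.26, adjusted p = 0.0216), and 5 of 7 HF + AD mice lay below all AD mice. With limma voom and sample quality weights its log2 fold change was −0.83 and its adjusted p 0.0633. Pnpla2, the triglyceride lipase ATGL, rose 1.80-fold (log2 fold change 0.85, standard error 0.21, adjusted p = 0.0204), but its adjusted p was 0.0524 without HF + AD mouse 2 and 0.0699 with limma voom and sample quality weights. Of the muscle ligases, Fbxo32 had a log2 fold change of −0.40 and did not pass (adjusted p = 0.218); it was chosen after its value was seen.

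Markers of other cells stood beside these falls and rises. The 8 skeletal muscle markers summed to 1143 to 2356 CPM in the AD group and 678 to 1816 CPM in the HF + AD group, with Acta1 (log2 fold change −0.72, adjusted p = 0.0481) and Atp2a1 (−0.82, adjusted p = 0.0340) lower in edgeR's test and the other 6 not called. The 7 adipocyte markers summed to 93.0 to 663 CPM and 88.1 to 495 CPM, with Lipe (0.95, adjusted p = 0.0456) alone called. Acta1, Atp2a1 and Lipe passed in 10, 13 and 12 of 22 other analyses. The part of muscle and fat cells in the values of Trim63 and Pnpla2 was not tested. Among the remaining lists, hair shaft and inner root sheath keratins had 2 of 7 called, both higher, sebocytes 1 of 4, higher, and the dermal papilla list 1 of 7, lower (Hhip, −1.60, adjusted p = 0.0132). In edgeR's test, suprabasal keratinocyte (4 tested), macrophage and dendritic cell (7 tested) and T cell lists (3 tested) had 0 called, with 0, 2 and 1 genes at an unadjusted p under 0.05. Beside all these lists, 9.20% of all genes tested were called and 25.1% had an unadjusted p under 0.05. The sum of the macrophage and dendritic cell markers was 24.8 to 134 CPM and 52.0 to 206 CPM, and that of the T cell markers at most 19.9 CPM in any mouse.

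**Figure D5:**
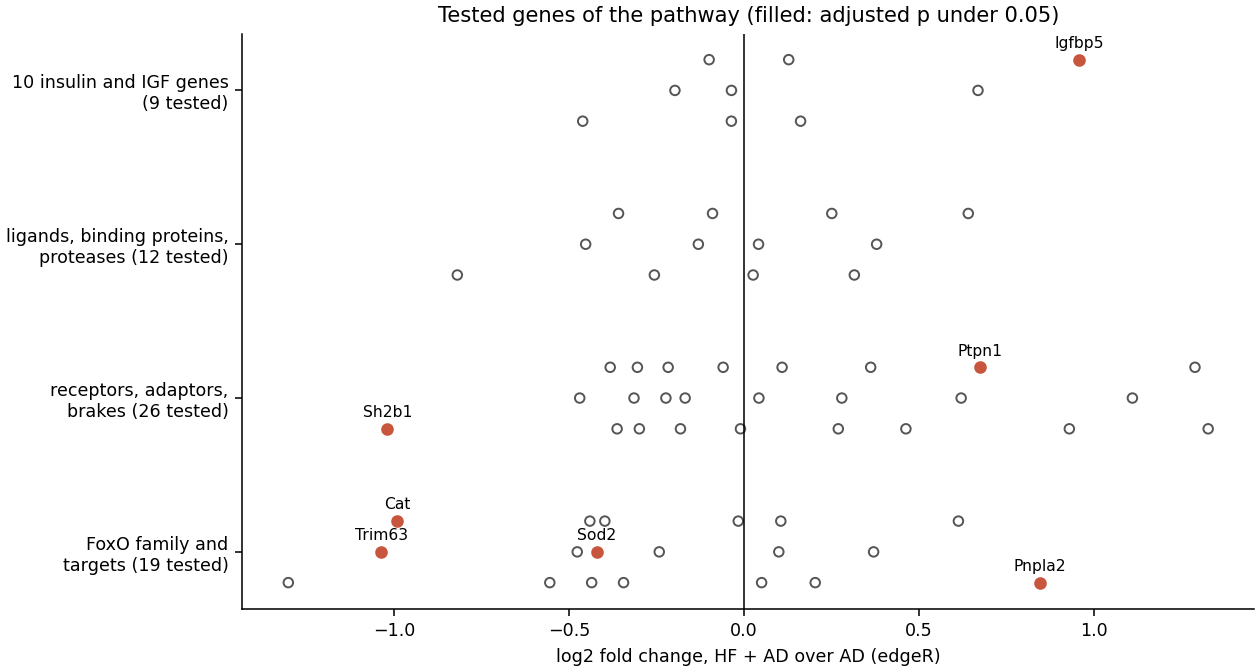
Log2 fold change of HF + AD over AD from edgeR for each tested gene of the pathway, by list (rows; points are genes and are set apart vertically so that they can be seen; filled and named where the adjusted p is under 0.05; 1 gene that fell is not shown). In the 3 lists around the 10 genes, 2 of 57 genes rose and 5 fell, and Igfbp5 is the filled point among the 9 tested members.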

How the data were processed

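Skin RNA was extracted with TRIzol, and QuantSeq libraries (1 per mouse) were sequenced on an Illumina NextSeq system. For each mouse, the authors deposited unnormalized counts of reads by gene symbol; the submitters' processing notes name Bowtie2, bedtools and mm10, and the versions, the strand setting of the counting and any removal of duplicates are not given in the sources used here. Igf1, Insr, Irs1, Irs2 and Foxo1 overlap other annotated genes, whose reads could not be told apart without strand. One of those at Foxo1, Gm38034, is on the same strand, so that strand would not separate it either. Of 23282 entries, 4677 had no read, and 35 symbols were listed more than once and kept as separate entries.

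Counts of 5 AD and 7 HF + AD mice, grouped by their titles, were scaled by TMM (factors 0.944 to 1.04), filtered (filterByExpr) and tested across 14163 genes with edgeR 4.0.16 in R 4.3.3 (quasi-likelihood fit on group alone; p-values adjusted by Benjamini–Hochberg, threshold 0.05); standard errors were the log2 fold change over the root of F. Levels are CPM or log2(CPM + 1), compared by an exact permutation test over 792 splits. The 4 ratios of members are differences in log2(CPM + 1) within a library and were tested likewise. limma 3.58.1 and DESeq2 1.42.0 served as alternatives; other steps used Python 3.11.15, NumPy 2.4.6 and matplotlib 3.10.9. Counts per molecule were estimated from how often a gene had no read where the rest of its group predicted 10 to 200 counts. A count of 0 allows 3 counts, and limits and intervals cover counting error or the spread between these samples only. Files of the same group differed by at least 22.7 in mean chi-square per gene, and no library was counted as a repeat. This value takes each read as independent and rises where many reads come from the same molecule. It therefore cannot exclude repeated libraries of 1 mouse.

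The members and lists were chosen with earlier results of these data known. Named are the 10 members, the genes of each pathway list past the threshold (at most 8) or, where fewer than 3 passed, the 3 with the smallest p, the marker genes a result turns on, and the 2 genes most like each member with a mean count of at least 100. Of the receptor, adaptor and brake genes that passed, 1 is counted but not reported here. Gene positions came from GENCODE M21 (GRCm38) and sequences from RefSeq. Steps were tested on simulated data: with a fold of 1 on the log2 scale, 98 of 100 changed genes were called for the comparison of HF + AD with AD, over 14286 genes fitted. The simulation gave every gene the same spread between mice and left out the difference between the groups in counts per molecule. It checks the steps only, and how often such a change would be called in these data was not measured.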

Additional observations from a re-analysis of the deposited data

How the results depend on the processing

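Igfbp5 was called in each of the 22 alternatives across all genes, with log2 fold changes of 0.85 to 1.10, and no other member was called in any of them; Insr, Igf1r, Irs2 and Igfbp3 kept their direction in those that tested them. The sign changed for Igf1, Irs1, Grb10 and Foxo1. Igf1 was 0.030 on library totals alone, 0.19 with limma-trend, 0.40 with limma voom and sample quality weights, 0.063 with counts per molecule and 0.12 with the replicate block, and −0.24 to 0.71 without single mice (0.023, 0.070 and 0.083 without HF + AD mouse 1, 2 or 4). Irs1 was 0.0050 with voom and −0.36 to 0.12 without single mice, Grb10 0.023 with limma-trend and −0.33 to 0.061, and Foxo1 0.0027 on library totals and −0.14 to 0.020. As differences in log2(CPM + 1), Foxo1 was 0.023 on library totals, Grb10 −0.0051 with DESeq2's size factors and −0.067 with the replicate block, and without single mice Igf1 ranged from −0.060 to 0.62, Irs1 from −0.29 to 0.14, Grb10 from −0.31 to 0.155, Foxo1 from −0.16 to 0.035 and the ratio of Igf1r to Insr from −0.15 to 0.12. The cause of these changes was not tested. By the exact permutation test, 1 member passed, and without single mice 1 to 2; of the 4 ratios 1 passed, and without single mice 0 to 1. Of the other pathway genes 7 passed, 4 with limma voom and sample quality weights and 4 to 11 without single mice; 6 of the 11 without AD mouse 1 were among the 7. The share of higher genes among all called genes was 48.1%, and 59.1% on library totals alone.

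The labels number the mice in both groups, but same-numbered mice did not deviate together (correlation −0.11 to 0.072 over 5 pairs, 1 of them best with its own number), so that the numbers name the mice only. With the replicate block, Igfbp5 had a log2 fold change of 1.07 (adjusted p = 0.0465), 1 of the other pathway genes passed in place of 7 (0 of the FoxO family and its targets; Trim63 had an adjusted p of 0.0664, Pnpla2 0.0696 and Cat 0.0541), and 0 members passed in the exact test of 5 pairs, whose smallest possible p is 0.0625. Low counts limit Irs2 and Foxo3, with at most 22 and 8 reads in any mouse.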
